A study of Homo sapiens with 15 samples.

Results

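U937, an established human myeloid leukaemia cell line with features of the monocyte lineage, was compared with and without knockdown of RNF5 in 4 of the 15 RNA-seq libraries of the series. The control cells carried the empty lentiviral pLKO vector and are represented by replicates 2 and 3. The knockdown cells carried a short hairpin RNA against RNF5 (shRNF5) and are represented by replicates 1 and 3. RNA was taken 7 days after knockdown according to the sample labels, whereas the series' design text gives 5 days. Which of the study's hairpins was used is not stated, the control vector holds no hairpin, and the study speaks of independent repeats only in general, not for these replicates, so p-values measure only the spread between these samples. The values are normalized read counts per gene, and 13165 of 57820 gene IDs were above 0 in at least 1 of the 4 libraries.

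RNF5 is a RING-type E3 ubiquitin ligase anchored in the membrane of the endoplasmic reticulum, where it marks misfolded or surplus proteins for removal by the proteasome. U937 cells resemble immature monocytes. They store serine proteases in primary granules, divide rapidly, and can be driven towards a macrophage-like state in which chemokines, scavenger receptors and the NADPH oxidase increase. Cholesterol synthesis in such cells is under the control of SREBP transcription factors, which act when the sterol content of the endoplasmic reticulum is low.

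The myelomonocytic identity of the cells was visible in all 4 libraries. Of 13 markers written down for it, 12 were above 0, among them LYZ (lysozyme, 10482 to 16704), ITGB2 (CD18, 9127 to 16291), CTSG (8277 to 30047) and PTPRC (CD45, 3125 to 5116), while CD68 was listed at 0. Of the markers for other cells, 4 of 15 for lymphocytes, 2 of 14 for erythroid cells and megakaryocytes and 1 of 17 for epithelial, stromal or neural cells were above 0, and none of these was called. Per library, the lymphocyte markers summed to 2804 to 3762 and the erythroid and megakaryocyte markers to 152 to 251. The 1 epithelial, stromal or neural marker stood at 234 in pLKO replicate 2 and 39 in pLKO replicate 3, against 15 and 29 with shRNF5.

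The 4 libraries did not fall cleanly into pairs. Across the 13165 genes, which are not independent replicates, the Pearson correlation of log2 values was 0.981 between the shRNF5 libraries but 0.952 between the pLKO libraries, and pLKO replicate 3 was closer to shRNF5 replicate 3 (0.960) than to pLKO replicate 2. More than a 2-fold difference was found for 1710 genes between the pLKO libraries and for 835 between the shRNF5 libraries. pLKO replicate 2 also had 53 of the tested genes at 0, against 2 to 5 in the other libraries. The estimated depth was 14000000 counted reads in pLKO replicate 2, 20500000 in pLKO replicate 3, 17200000 in shRNF5 replicate 1 and 14300000 in shRNF5 replicate 3, so it overlapped between the constructs. Results are therefore given with all 4 libraries, and log2 fold changes of called genes are given again without a library where leaving it out moved them by more than 1.5 times. Small values of genes that were not called often moved more.

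RNF5 itself was the first check of the labels. RNF5 (chromosome 6, 32146182 to 32148570, GRCh37, as are all gene positions here) stood at 648 and 843 in the pLKO libraries and at 46 and 74 in the shRNF5 libraries. The groups lay far apart, and the log2 fold change was -3.64 (SE 0.37, limma adjusted p = 0.00287), a 12.5-fold reduction. RNF185 is the closest paralog of RNF5 and likewise a ligase of the endoplasmic reticulum. It stood at 227 and 247 with pLKO and at 397 and 439 with shRNF5. The log2 difference of 0.82 missed the threshold (SE 0.30, limma adjusted p = 0.115). It passed in 1 limma fit over all 15 libraries of the series (adjusted p = 0.0122). That fit passed 5239 genes, against 2062 in the fit of the U937 libraries alone.

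Across all genes, the response was broad and slightly weighted towards falls. A gene was called where limma gave an adjusted p under 0.1 and the difference on the log2(normalized read count + 1) scale exceeded 0.4 in either direction. Of the 13165 genes, 15.7% were called, 6.92% higher (911 genes) and 8.74% lower (1151 genes) in shRNF5, and these shares are the background for every list below. The median log2 fold change was 1.10 among the rises and -1.31 among the falls, and 0.00 over all genes tested. Changes of more than 8-fold were seen for 42 risers and 50 fallers. Long noncoding RNAs were called lower more often than protein-coding genes, at 12.8% of 978 against 8.34% of 11247, and called higher less often, at 2.35% against 7.66%.

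The number of calls rested on pLKO replicate 2 and on both shRNF5 libraries, but not on pLKO replicate 3. With pLKO replicate 2 left out, limma called 0 genes although 2420 had an unadjusted p under 0.05. With shRNF5 replicate 1 left out it called 0, with 1084 at an unadjusted p under 0.05, and with shRNF5 replicate 3 left out it called 6, whereas 2369 were called without pLKO replicate 3. A construct left with 1 library was assumed to vary like the other. Without pLKO replicate 2, the median log2 fold changes of the called risers and fallers were 0.97 and -1.17.

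**Figure D1:**
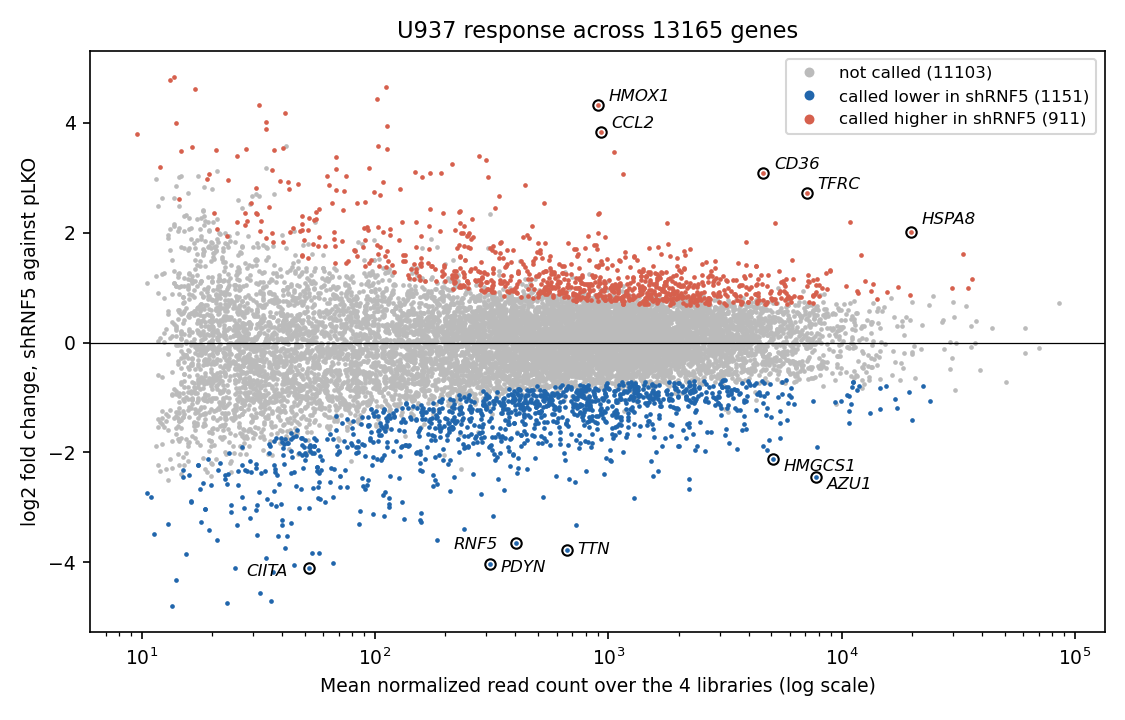
Each point is a gene, with its mean normalized read count over the 4 U937 libraries on a log axis and its log2 fold change of shRNF5 against pLKO on the vertical axis. The 911 genes called higher are red, the 1151 called lower are blue and the others grey, and HMOX1, CD36, TFRC and HSPA8 stand out among the well-expressed risers.

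Among the risers with a mean of at least 100, the genes with the largest change included a haem-degrading enzyme and a chemokine. HMOX1, the haem oxygenase that opens the haem ring and frees its iron (chromosome 22, 35776354 to 35790207), rose from 68 and 105 to 1563 and 1872. This rise had the lowest adjusted p of the largest risers (log2 fold change 4.32, SE 0.32, limma adjusted p = 0.000634). CCL2, the chemokine that attracts monocytes (chromosome 17, 32582293 to 32584227), rose from 75 and 193 to 1819 and 1647, with a log2 fold change of 3.83 (SE 0.40, adjusted p = 0.00287). The knockdown libraries lay close together for both genes, and the constructs did not overlap.

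Another 7 of the 10 largest rises included secreted and structural proteins. MMP1, a secreted collagenase, was at 92 and 293 with pLKO and at 2536 and 1309 with shRNF5 (log2 fold change 3.46, SE 0.49). S100A9, a subunit of the myeloid calcium-binding protein calprotectin, was at 31 and 71 against 458 and 557 (3.40, SE 0.44). EMP1, a membrane protein of the tetraspan type, was at 52 and 55 against 504 and 591 (3.33, SE 0.35), the tightest pLKO pair of the group. TGM3, a protein-crosslinking transglutaminase best known from skin, went from 9 and 18 to 229 and 195 (3.95, SE 0.52). The hair keratins KRT86 (2 and 25 against 159 and 223) and KRT81 (6 and 32 against 142 and 230) rose by 4.42 and 3.58, but the positions of these highly similar genes overlap on chromosome 12, so their reads may not be fully separated. SUSD1, a sushi-domain protein, was at 4 and 54 against 251 and 143. Without pLKO replicate 2, the log2 fold change of SUSD1 went from 3.52 to 1.79 and that of KRT86 from 4.42 to 2.86.

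**Figure D2:**
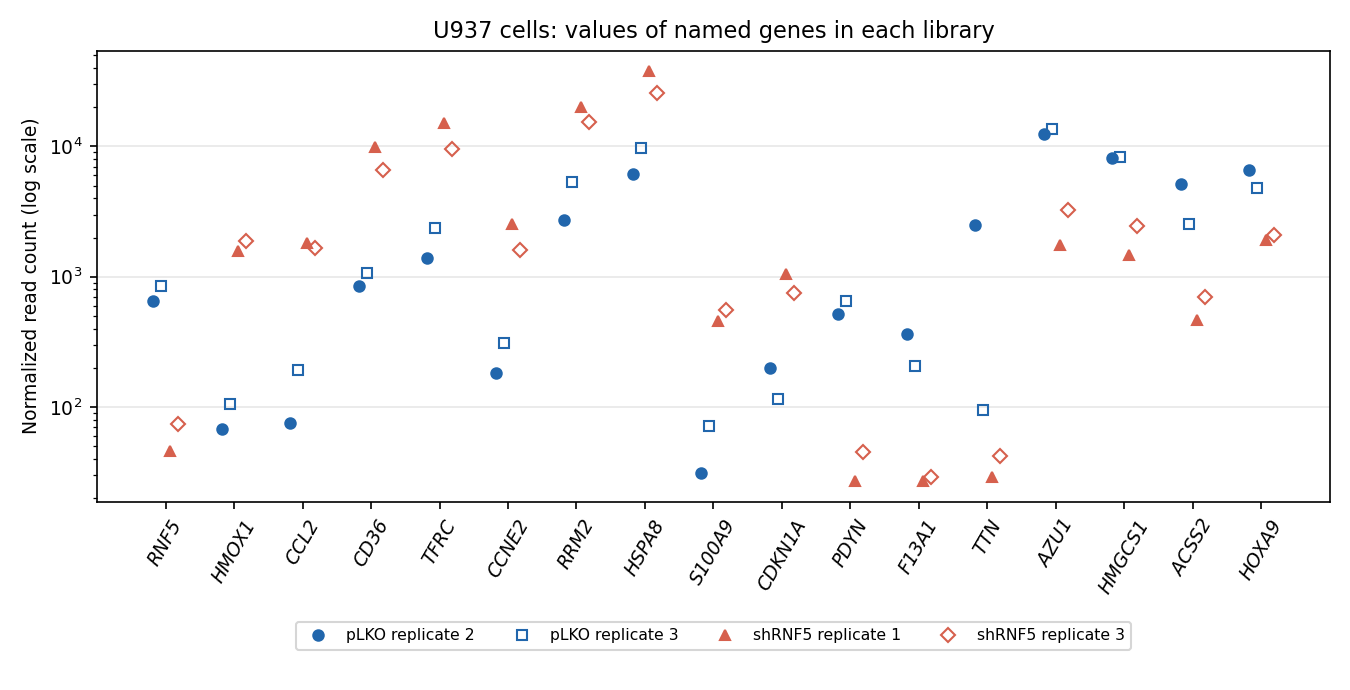
Normalized read counts of 17 genes in each of the 4 U937 libraries on a log axis, with pLKO replicates in blue and shRNF5 replicates in red. The shRNF5 points lie on the same side of both pLKO points for every gene shown, and TTN is at 2498 in pLKO replicate 2 but at 95 in pLKO replicate 3.

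Among the falls, RNF5 was itself within the largest 10. PDYN, which encodes the opioid peptide precursor prodynorphin (chromosome 20, 1959403 to 1974931), fell further, from 522 and 656 to 27 and 45 (log2 fold change -4.03, SE 0.40, limma adjusted p = 0.00287). F13A1, the A subunit of coagulation factor XIII and a gene of monocytes and platelets, fell from 366 and 208 to 27 and 29 (-3.26, SE 0.45). KCNAB1, a potassium channel beta subunit, fell from 650 and 236 to 49 and 27 (-3.39, SE 0.52). ANXA2R, which encodes a receptor for annexin A2, fell from 2182 and 497 to 144 and 75 (-3.31, SE 0.58). SRGAP3, a GTPase-activating protein for Rac, fell from 440 and 133 to 22 and 28, PPP1R32 from 296 and 183 to 14 and 42, and UNC5CL, a death-domain protein, from 245 and 147 to 15 and 28. For each of these genes both shRNF5 libraries were below both pLKO libraries by a wide margin.

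The falls of 2 further genes were largely set by pLKO replicate 2. TTN, the giant muscle protein titin, was at 2498 in that library but at 95 in pLKO replicate 3, against 29 and 42 with shRNF5. C2orf72 was at 674 and 40 against 11 and 15. The log2 fold changes were -3.77 for TTN and -3.59 for C2orf72 with all libraries, -1.42 and -1.57 without pLKO replicate 2, and -6.12 and -5.61 without pLKO replicate 3.

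Cholesterol synthesis had the lowest median of the 36 gene lists described here. Of 24 tested genes for sterol synthesis, uptake and its control, 14 fell, 0 rose, and 23 had a negative log2 fold change. The median was -1.04, against 0.00 over all genes tested, and it lay between -1.12 and -0.79 with any 1 library left out. HMGCS1, the enzyme that makes HMG-CoA from acetyl units (chromosome 5, 43287572 to 43313614), fell from 8175 and 8246 to 1471 and 2446. Its pLKO libraries were almost identical, and the log2 fold change was -2.11 (SE 0.28, limma adjusted p = 0.00901). MVD, the decarboxylase that yields isopentenyl diphosphate, fell from 2930 and 2179 to 496 and 809 (-1.99, SE 0.30). STARD4, a carrier of cholesterol between membranes, fell from 5125 and 3155 to 752 and 1394 (-1.97, SE 0.34). MSMO1, which removes methyl groups from the sterol ring, fell from 6394 and 3917 to 1233 and 1596 (-1.83, SE 0.29).

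Falls were seen from HMGCS1, near the start of the pathway, to DHCR7 at its end, but not at every step. The enzymes ACAT2, PMVK, SQLE, CYP51A1 and NSDHL were not called. FDPS and FDFT1, which build farnesyl diphosphate and join it to squalene, both fell (-1.47 on the log2 scale), from 7648 and 8290 to 2301 and 3608 and from 17394 and 14110 to 4955 and 6449. MVK, IDI1, LSS, TM7SF2, EBP, SC5D and DHCR7 also fell, as did INSIG1, the sterol-dependent anchor of SREBP, which went from 12057 and 18096 to 4869 and 7916 (-1.25). Leaving out shRNF5 replicate 1 brought the log2 fold changes of DHCR7 from -1.003 to -0.55 and of TM7SF2 from -1.26 to -0.84.

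SREBF2, which encodes the transcription factor that drives the pathway, missed the threshold (log2 difference -0.65, SE 0.25, limma adjusted p = 0.126). Its constructs did not overlap. SREBF2 passed in 1 limma fit over all 15 libraries (adjusted p = 0.0169). That fit called 5239 genes, against 2062 in the fit of the U937 libraries alone.

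**Figure D3:**
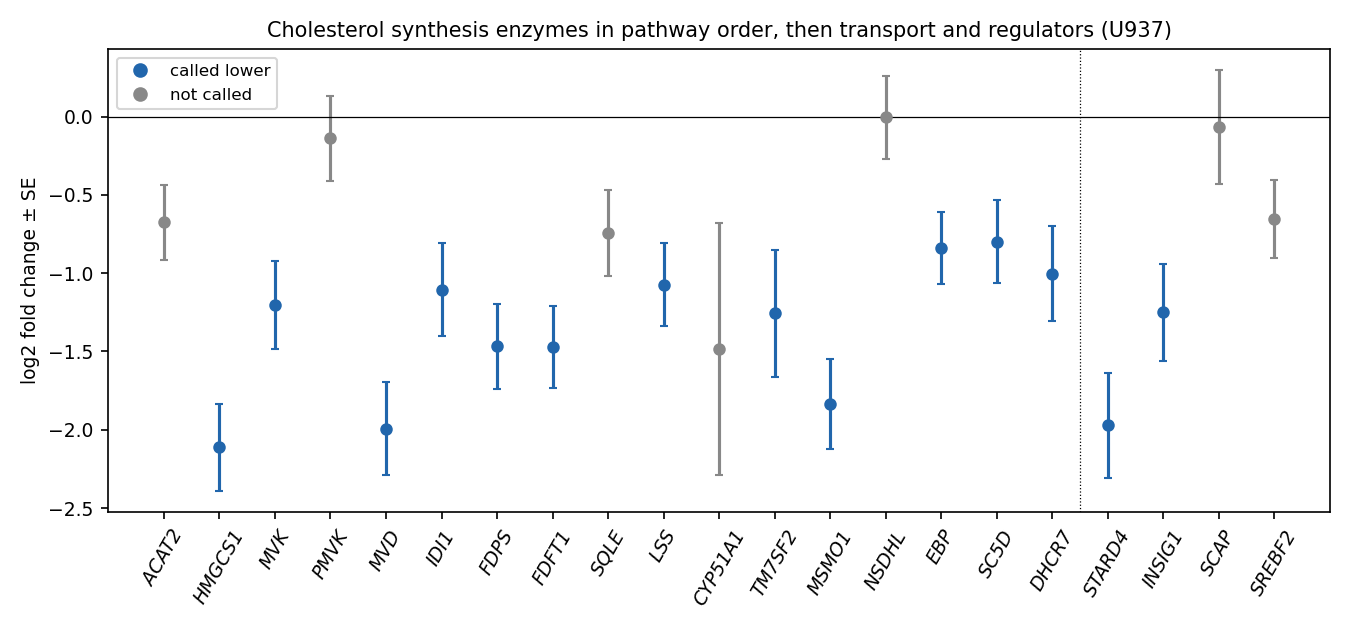
Log2 fold changes of shRNF5 against pLKO in U937, with their standard errors, for 17 enzymes of cholesterol synthesis in the order of the pathway and, right of the dotted line, for 4 transport and regulatory genes. Called falls are blue and uncalled genes grey, and HMGCS1 is lowest at -2.11.

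As examples of called members that held the motif described next, promoter sequences are shown for 3 of these genes. They come from RefSeq on build GRCh38.p14, in a window of 300 bases around the start site, which held an entry for 18 of the 24 members. The short motif CCAAT, the binding sequence of NF-Y, a factor that acts next to SREBP, was searched on both strands, and a match describes the letters of the window only. It was present in 14 of 18 members (77.8%) and in 12 of the 13 called members (92.3%), against 36.9% of the 8910 tested genes with an entry and 35.7% of all 27305 promoters. The motif was also frequent in lists without a fall, with matches in 33 of 41 promoters of mitotic genes (80.5%) and in 22 of 39 of replication genes (56.4%). An SREBP motif written TCACNCCAC was found in 1 of the 18 (SREBF2), in 0 of 10 promoters of the fatty acid genes described below and in 1.01% of tested genes. In the lines that follow, capitals mark CCAAT or its complement ATTGG, and the stretches lie on the minus strand at chr5:43313478-43313597 for HMGCS1 and at chr16:88663142-88663280 for MVD and on the plus strand at chr1:155308660-155308849 for FDPS.
HMGCS1: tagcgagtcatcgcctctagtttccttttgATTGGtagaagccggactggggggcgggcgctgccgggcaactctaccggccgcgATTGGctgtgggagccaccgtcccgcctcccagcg
MVD: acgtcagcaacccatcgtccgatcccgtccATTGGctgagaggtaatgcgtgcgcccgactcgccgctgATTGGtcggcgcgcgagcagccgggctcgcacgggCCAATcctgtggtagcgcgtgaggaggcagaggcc
FDPS: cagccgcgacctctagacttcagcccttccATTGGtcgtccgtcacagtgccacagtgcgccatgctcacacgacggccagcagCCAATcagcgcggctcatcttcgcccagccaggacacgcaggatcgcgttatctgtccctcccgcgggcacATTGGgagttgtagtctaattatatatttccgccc

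Fatty acid genes fell in part. Of 11 tested genes for fatty acid synthesis and its control, 4 fell and 0 rose, with a median of -0.57 that was -0.22 without shRNF5 replicate 1. ACSS2, which makes acetyl-CoA from acetate (chromosome 20, 33459949 to 33515765), fell the most, from 5167 and 2517 to 462 and 693 (log2 fold change -2.67, SE 0.35, limma adjusted p = 0.00901). SCD, the stearoyl-CoA desaturase (log2 fold change -1.21), FADS2 (-0.94) and INSIG2 (-1.05) also fell, and without shRNF5 replicate 1 the values were -0.73 for SCD and -0.57 for FADS2. FASN, the fatty acid synthase, was at 10905 and 9949 against 9451 and 9201 (-0.16, SE 0.24), and ACLY at 4344 and 4820 against 3905 and 4291 (-0.16, SE 0.23). Of 5 tested genes for cholesterol export and its regulator LXR, APOE, the lipid-carrying apolipoprotein of macrophages, fell from 260 and 97 to 13 and 23 (-3.13, SE 0.59, limma adjusted p = 0.0212). NR1H3 (-0.61), MYLIP (-0.09), NR1H2 (0.22) and LPCAT3 (0.78) were not called. LPCAT3 was at 0.25 without pLKO replicate 2 and was called without pLKO replicate 3 (1.32, limma adjusted p = 0.0789), and NR1H3 was at -0.10 without shRNF5 replicate 1 and at -1.12 without shRNF5 replicate 3.

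Iron and haem genes included the strongest rises of the antioxidant group. Of 27 tested members of the NRF2 pathway and of iron and haem handling, 8 rose and 0 fell, while the median was 0.15. TFRC, the transferrin receptor that brings iron into the cell (chromosome 3, 195739382 to 195809024), rose from 1400 and 2378 to 15084 and 9536 (log2 fold change 2.72, SE 0.32, limma adjusted p = 0.00558). FTH1, the heavy chain of the iron store ferritin, rose from 4837 and 5265 to 10592 and 15028 (1.32, SE 0.26), whereas the light chain FTL was at 68968 and 76654 against 63731 and 72423 (-0.10, SE 0.31). NQO1, GCLM and TXNRD1, enzymes of redox defence, rose by 1.35, 1.02 and 0.84, and ALAS1, which starts haem synthesis, by 0.67. Without pLKO replicate 2 the value of NQO1 was 0.88.

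Genes of DNA replication had risers and no fallers. Of 48 tested members, 11 rose, 0 fell and 43 had a positive log2 fold change, with a median of 0.67. This median depended on the control library, being 0.32 without pLKO replicate 2 and 0.93 without pLKO replicate 3. CCNE2, a cyclin that starts S phase, rose from 184 and 311 to 2526 and 1596 (log2 fold change 3.06, SE 0.34, limma adjusted p = 0.0036). RRM2, the inducible subunit of ribonucleotide reductase (chromosome 2, 10260825 to 10351851), rose from 2730 and 5297 to 20003 and 15298 (2.20, SE 0.33, adjusted p = 0.0144). CCNE1, CDC6, E2F2, POLA1, MCM5, GINS3, GINS4, UHRF1 and E2F8 rose by 1.05 to 1.78. Without pLKO replicate 2 the values were 1.02 for CCNE1, 0.69 for CDC6, 0.59 for GINS3, 0.81 for GINS4 and 0.72 for UHRF1, and without pLKO replicate 3 GINS3 was at 1.95. PCNA, the sliding clamp, was at 5200 and 12654 with pLKO and at 14729 and 12642 with shRNF5, so its constructs overlapped (log2 difference 0.75, SE 0.37, adjusted p = 0.221). PCNA was at 0.11 without pLKO replicate 2 and passed without pLKO replicate 3 (1.39, limma adjusted p = 0.0666).

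Of the 39 members of this list with a RefSeq promoter, 22 (56.4%) held the E2F motif TTTNNCGC on either strand, as did 5 of 7 called members, against 10.9% of tested genes. In the list of mitotic genes, which also had risers and no fallers, the share was near that of tested genes. There 5 of 41 promoters (12.2%) and 3 of 9 called members held the motif. The stretches around the matches in E2F2, CDC6 and POLA1, which rose by 1.42, 1.32 and 1.34, are shown as examples of called members with a match. Capitals mark the matches, which describe the letters of the window only, and a role of E2F factors was not tested. They lie at chr1:23531234-23531340 on the minus strand, chr17:40287856-40287923 on the plus strand and chrX:24693751-24693818 on the plus strand (GRCh38.p14).
E2F2: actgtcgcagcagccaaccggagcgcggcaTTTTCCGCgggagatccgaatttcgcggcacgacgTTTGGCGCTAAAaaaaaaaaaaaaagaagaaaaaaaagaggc
CDC6: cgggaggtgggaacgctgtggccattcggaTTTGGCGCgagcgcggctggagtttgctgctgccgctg
POLA1: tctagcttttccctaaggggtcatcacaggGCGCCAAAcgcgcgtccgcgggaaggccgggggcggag

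Mitotic genes likewise had risers and no fallers. Of 50 tested members, 11 rose and 0 fell, with a median of 0.53 that was 0.38 without pLKO replicate 2. MKI67, the proliferation antigen Ki-67, rose from 4917 and 7226 to 18595 and 17579 (log2 fold change 1.60, SE 0.27, limma adjusted p = 0.0179), and KIF11, the motor that separates spindle poles, from 2178 and 2589 to 5363 and 4474 (1.04, SE 0.24). NUSAP1, ZWINT, SPC25 and KIF20A, proteins of the spindle and the kinetochore, rose by 0.95 to 1.23. Without pLKO replicate 2 NUSAP1 was at 0.71, ZWINT at 0.67 and SPC25 at 0.62. The levels of TOP2A (0.30), TPX2 (0.41) and CENPF (0.57) did not pass the test.

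Inhibitors of the cell cycle did not share a direction. Of 16 tested members, 4 rose and 2 fell, with a median of -0.07. CDKN1A (p21), which blocks cyclin-dependent kinases, rose from 201 and 115 to 1057 and 744, CDKN2D (p19) from 388 and 338 to 664 and 717, BTG2 from 131 and 121 to 351 and 250, and the pocket protein RBL1 from 826 and 1006 to 2062 and 1596. CDKN2A (p16 and ARF) fell from 1409 and 1503 to 659 and 724 (log2 fold change -1.07, SE 0.25) and GADD45A, a stress gene that slows division, from 431 and 301 to 84 and 97 (-1.98, SE 0.36). CDKN1B (p27) was at 3176 and 2494 against 3045 and 2911 (0.08, SE 0.24). Of 18 tested p53 targets 1 rose and 2 fell, with a median of 0.02. AEN rose by 1.81, while BBC3, which encodes the death-promoting protein PUMA (-2.002), and CCNG1 (-0.69) fell. Without pLKO replicate 2, AEN was at 0.99 and BBC3 at -1.25. Of 19 tested BCL2 family members, BBC3 was the 1 that fell and HRK, at 0 and 5 against 23 and 20, the 1 that rose, with 1.90 instead of 3.20 without pLKO replicate 2.

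Primary granule genes fell in part. Of 16 tested members of the granule and progenitor list, 5 fell and 2 rose, with a median of -0.67 that was -0.24 without pLKO replicate 3. AZU1, the antimicrobial protein azurocidin (chromosome 19, 825097 to 832018), fell from 12516 and 13539 to 1749 and 3267 (log2 fold change -2.44, SE 0.30, limma adjusted p = 0.00829). Its neighbours on chromosome 19 in the granule protease cluster, ELANE (9166 and 11149 against 5780 and 4077) and PRTN3 (1633 and 3539 against 1171 and 1171), fell (log2 fold changes -1.06 and -1.04), as did CTSG (-1.18) and CST7 (-0.72). PRTN3 was at -1.59 without pLKO replicate 2 and at -0.48 without pLKO replicate 3. The ribonucleases RNASE2 (445 and 1951 against 2030 and 4521) and RNASE3 (312 and 897 against 1159 and 1597) rose by 1.70 and 1.36. They were at 0.63 and 0.60 without pLKO replicate 2 and at 2.76 and 2.12 without pLKO replicate 3, and RNASE2 was at 1.12 without shRNF5 replicate 3. These paralogs are similar in sequence and may share reads.

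Surface genes of monocytes and macrophages changed selectively. Of 29 tested members, 9 rose and 1 fell, with a median of 0.35 (0.59 without pLKO replicate 2 and 0.10 without pLKO replicate 3), while CD14, CD68, MRC1, MSR1, TREM2 and 7 others were listed at 0 in all 4 libraries. CD36, the scavenger receptor for oxidized lipids (chromosome 7, 79998891 to 80308593), rose from 854 and 1063 to 9966 and 6610 (log2 fold change 3.09, SE 0.27, limma adjusted p = 0.00171). The formyl peptide receptors FPR1 (1 and 0 against 31 and 36) and FPR2 (12 and 112 against 321 and 410), the activating receptor TREM1 (21 and 11 against 99 and 63), the costimulator CD86 (19 and 14 against 41 and 120) and the adhesion receptor EMR2 (351 and 448 against 1813 and 1241) also rose. FPR2 was at 1.69 instead of 3.25 without pLKO replicate 2, and CD86 at 1.28 instead of 2.04 without shRNF5 replicate 3. ITGAX (CD11c) fell by 1.44 on the log2 scale, with -0.69 without pLKO replicate 2, -2.18 without pLKO replicate 3 and -0.90 without shRNF5 replicate 1. LYZ, CTSD, ITGB2 and GPNMB did not pass the test, at -0.23, -0.86, 0.18 and -0.55. Without pLKO replicate 3, CTSD (-1.39, limma adjusted p = 0.0921) and GPNMB (-1.28, adjusted p = 0.0703) passed it, while without pLKO replicate 2 they were at -0.34 and 0.17.

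The NADPH oxidase list, the enzyme complex of the oxidative burst, had 4 risers and 0 fallers among 8 tested members. RAC2, its small GTPase, rose from 768 and 696 to 1481 and 1418 (log2 fold change 0.99, SE 0.24, limma adjusted p = 0.0428). The other 3 risers were NCF1, which encodes p47phox (24 and 27 against 176 and 137), and its near-identical copies NCF1B (0 and 14 against 85 and 37) and NCF1C (22 and 15 against 130 and 94), whose reads cannot be told apart with confidence. They rose by 2.56, 3.88 and 2.54, and NCF1B was at 1.93 without pLKO replicate 2 and at 5.84 without pLKO replicate 3. The membrane subunit CYBB (61 and 52 against 268 and 77, log2 difference 1.34), its partner CYBA (0.03) and NCF4 (-0.50) did not pass the test, and CYBB was at 0.44 without shRNF5 replicate 1 and at 2.23 without shRNF5 replicate 3.

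Chemokine and cytokine genes included 6 risers and 2 fallers of 28 tested, with a median of 0.34 that was 0.64 without pLKO replicate 2, 0.11 without pLKO replicate 3 and 0.58 without shRNF5 replicate 3. Besides CCL2, IL8 (112 and 82 against 1110 and 451), TNF (18 and 16 against 229 and 113), IL1R1 (16 and 19 against 99 and 97), CCR1 (139 and 92 against 323 and 451) and the death receptor TNFRSF21 rose. IL18, a cytokine activated by inflammasomes, fell from 1592 and 1266 to 459 and 595 (log2 fold change -1.44, SE 0.27, limma adjusted p = 0.0212), and CSF3R, the receptor for G-CSF, fell by 0.97 on the log2 scale. Of 20 tested NF-κB subunits and feedback genes, 2 rose and 0 fell, with a median of 0.00. These were the kinase IKBKE (1.48) and CD83 (1.72, or 0.94 without pLKO replicate 2). Of 13 tested S100 proteins and galectins, S100A9, its partner S100A8 (27 and 52 against 454 and 234) and LGALS12 (510 and 494 against 1702 and 1235) rose and 0 fell. Of 7 tested annexins, ANXA1, a mediator that dampens inflammation, rose from 502 and 820 to 2608 and 3200 (2.17, SE 0.29, adjusted p = 0.00917). ANXA6 (0.68), ANXA2 (0.61), ANXA5 (0.07), ANXA7 (0.06), ANXA4 (-0.15) and ANXA11 (-0.28) were not called.

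Of 18 tested genes of antigen presentation, 6 fell and 0 rose, with a median of -0.64 that was -0.42 without pLKO replicate 2. CIITA, the master activator of MHC class II genes (chromosome 16, 10960079 to 11036878), fell from 126 and 73 to 3 and 7 (log2 fold change -4.10, SE 0.68, limma adjusted p = 0.0179). The class II chaperones CD74 (616 and 509 against 244 and 231) and HLA-DMA (184 and 61 against 9 and 29) fell (-1.23 and -2.63). Of the class I heavy chains, HLA-B (-1.05) and HLA-E (-1.13) fell, with HLA-B at -0.66 and HLA-E at -0.59 without pLKO replicate 2. HLA genes are polymorphic and alike, so reads may be shared between them. B2M, the light chain of class I, was at 26843 and 35312 against 29880 and 31168 (-0.01, SE 0.29). Interferon-stimulated genes were divided, with 4 risers and 6 fallers of 36 and a median of -0.10 that turned to 0.19 without pLKO replicate 2 and was -0.33 without pLKO replicate 3. The fallers included IFIT1 (103 and 67 against 18 and 23), IFI6 (859 and 501 against 221 and 193) and STAT2 (2943 and 1810 against 839 and 1019), and the risers IFIT3 (49 and 33 against 135 and 137), SAMD9 (299 and 332 against 879 and 743) and OAS3 (257 and 346 against 758 and 665).

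Transcription factors of the myeloid lineage also divided, with 7 risers and 3 fallers of 30. HOXA9 fell from 6540 and 4776 to 1918 and 2099 (log2 fold change -1.48, SE 0.25, limma adjusted p = 0.0179), SOX4 from 3715 and 3342 to 1479 and 1898, and MEIS1, the cofactor of HOXA9, from 6034 and 5623 to 2225 and 4012. MEIS1 was at -0.54 instead of -0.96 without shRNF5 replicate 1. The risers included FOSL1 (19 and 63 against 315 and 292), EGR1 (15 and 11 against 84 and 35), ID2 (505 and 663 against 1642 and 1657), RUNX1 (1395 and 1622 against 3671 and 3428) and FOSL2 (1719 and 1157 against 3364 and 3069).

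The cytoskeleton and adhesion lists had more risers than fallers. Of 40 actomyosin genes 9 rose and 1 fell, with a median of 0.47. MSN, moesin, which links actin to the membrane, rose from 13713 and 19036 to 55739 and 43826 (log2 fold change 1.61, SE 0.30, limma adjusted p = 0.0211), TPM4 from 4762 and 5364 to 12579 and 11738 and VCL, vinculin, from 2261 and 2104 to 4600 and 4109. FLNA, filamin A, rose by 1.15 and by 0.69 without shRNF5 replicate 1. TPM2, another tropomyosin, went the other way, from 2079 and 1284 to 306 and 433 (-2.16, SE 0.31). Of 22 tested members of the LIM kinase, slingshot and cofilin axis, which sets actin turnover, 6 rose and 1 fell, with a median of 0.34 that was 0.53 without pLKO replicate 3 and 0.66 without shRNF5 replicate 3. LIMK1, the kinase that inactivates cofilin, rose from 760 and 676 to 1631 and 1379 (1.06, SE 0.25), and SSH1, a phosphatase that activates it, from 663 and 409 to 1391 and 1022 (1.19, SE 0.31). CFL1, cofilin itself, was at 5041 and 9341 against 10717 and 9371 and did not pass (log2 difference 0.55), except without pLKO replicate 3 (0.99, limma adjusted p = 0.0882). Of 30 integrins, laminins and adhesion genes, 7 rose and 1 fell. ITGA5 rose from 5947 and 5003 to 12756 and 9174, and ITGB1, its partner in the fibronectin receptor, from 2875 and 1831 to 6858 and 3864, with 0.75 instead of 1.17 without shRNF5 replicate 1. PLAU, urokinase, fell (-1.48), with -0.53 without pLKO replicate 2 and -2.42 without pLKO replicate 3.

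Genes of cytosolic protein folding and breakdown had risers and no fallers. Of 27 cytosolic chaperones, 7 rose and 0 fell, with a median of 0.58. HSPA8, the constitutive HSP70 (chromosome 11, 122928197 to 122933938), rose from 6091 and 9797 to 37758 and 25535 (log2 fold change 2.01, SE 0.32, limma adjusted p = 0.0159), and its cochaperones DNAJA1, HSPH1 and STIP1 by 1.17, 1.15 and 1.14. Of 40 proteasome genes, 10 rose and 0 fell, with a median of 0.54 that was 0.33 without pLKO replicate 2 and 0.78 without pLKO replicate 3. PSMD1 rose from 1287 and 1904 to 4136 and 2739, PSMD12 from 1254 and 1677 to 3177 and 2736 and PSMD3 from 1169 and 1265 to 2631 and 2240. PSMB2 rose by 1.12, and by 0.61 without pLKO replicate 2. The heat shock element, in which GAA, TTC and GAA follow each other at a spacing of 2 bases, was present on either strand in 3 of 26 chaperone promoters (11.5%), against 0.303% of tested genes. Of the called chaperones, HSPA8 and DNAJA1 held it. The stretch of DNAJA1 with the match in capitals, chr9:33025246-33025318 on the plus strand (GRCh38.p14), is shown as an example.
DNAJA1: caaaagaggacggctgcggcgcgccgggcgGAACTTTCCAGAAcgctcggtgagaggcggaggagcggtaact

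For the endoplasmic reticulum, where RNF5 resides, the lists of degradation genes and of chaperones each had 4 of 35 tested members called, a share near the 15.7% of all genes. Of 35 tested genes of ER-associated degradation, 2 rose and 2 fell, with RNF5 as a faller. The other was GET4, which hands tail-anchored proteins to their insertion factor and fell from 520 and 274 to 101 and 102 (log2 fold change -1.88, SE 0.39, limma adjusted p = 0.0267). VCP, the ATPase that pulls proteins out of the membrane, rose from 4250 and 4595 to 9684 and 6575 (0.85, SE 0.26) and EDEM1 by 0.74. Of 35 ER chaperones and genes of the unfolded protein response, 1 rose and 3 fell. ERN1, the stress sensor IRE1, fell from 1657 and 923 to 402 and 511 (-1.45, SE 0.32), ERO1LB from 1297 and 842 to 210 and 265 (-2.14, SE 0.31) and SIL1 with a log2 fold change of -1.35. HSP90B1 (-0.35), P4HB (0.39), CANX (0.47) and CALR (0.73) were not called. Of 31 genes of the ATF4 amino acid response, 4 rose and 3 fell. The transporters SLC7A5 (1922 and 2913 against 6586 and 5820) and SLC1A4 rose by 1.39 and 0.74, while ASNS (-1.22) and PHGDH (-0.89), enzymes of amino acid synthesis, fell, with -0.78 and -0.51 without shRNF5 replicate 1.

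Genes of cytosolic ribosomal proteins had fallers and no risers. Of 77 cytosolic ribosomal protein genes, 13 fell and 0 rose, with a median of -0.44 that lay between -0.54 and -0.32 with any 1 library left out. RPS14 fell from 15632 and 14320 to 7278 and 6547, RPL13A from 33385 and 31508 to 16378 and 14627 and RPS20 from 13776 and 11750 to 6181 and 5886. For these genes the replicates of each construct were close. Their pseudogenes are many and similar, so some reads may be misplaced. Of 27 glycolysis genes, 6 rose and 1 fell, with a median of 0.39. SLC2A1, the glucose transporter GLUT1, rose from 363 and 436 to 1617 and 1142 (log2 fold change 1.77, SE 0.28, limma adjusted p = 0.0163), and SLC16A3, the lactate exporter MCT4, from 1274 and 1474 to 3934 and 3451 (1.43, SE 0.24). Of 73 nuclear-encoded respiratory chain genes 1 rose and 5 fell, and of 74 mitochondrial ribosomal proteins 2 rose and 2 fell. Genes encoded in mitochondrial DNA had 3 risers of 15 and a median of 1.14, but they made up at most 0.05% of all values and were highest in shRNF5 replicate 3. Their median was 0.42 without that library.

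Chromatin complexes had a share of called genes near the 15.7% of all genes. Of 37 tested genes of histone deacetylases and the NuRD, Sin3 and PRC2 complexes, 1 rose and 4 fell. HDAC6, a cytoplasmic deacetylase, fell from 3260 and 2279 to 1046 and 1186 (log2 fold change -1.29, SE 0.26, limma adjusted p = 0.0252). RBBP4, a histone-binding subunit shared by these complexes, was at 6225 and 7029 against 8020 and 8028 and did not pass the test (0.28, SE 0.24, adjusted p = 0.475). Of 36 nucleotide excision repair genes POLR2A rose by 1.21 and ERCC5 fell by 1.41 on the log2 scale. Of 45 autophagy and lysosome genes 1 rose and 3 fell, and of 20 polyadenylated and replacement histones 2 rose and 1 fell.

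**Figure D4:**
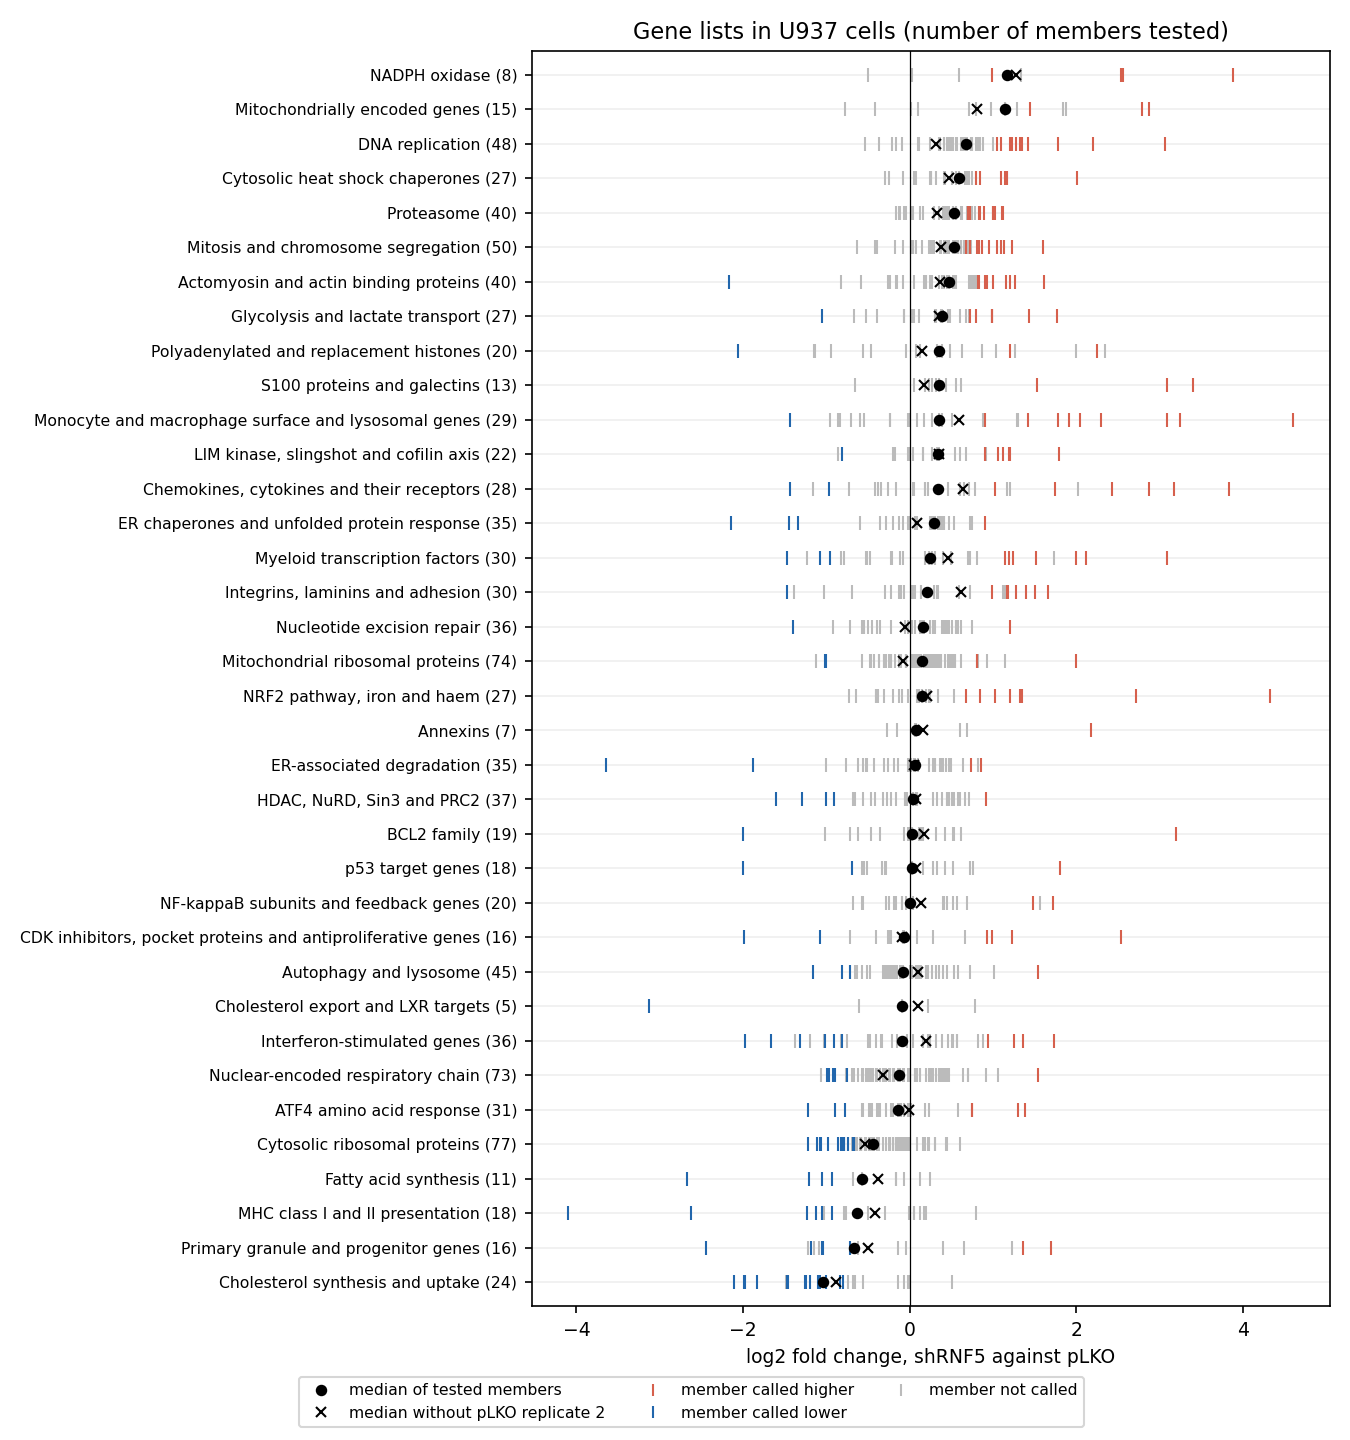
Log2 fold changes of shRNF5 against pLKO for the tested members of 36 gene lists in U937, 1 tick per gene, with called rises in red, called falls in blue and uncalled genes in grey. Black dots are the medians with all 4 libraries and crosses those without pLKO replicate 2, and cholesterol synthesis has the lowest median at -1.04.

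To see where U937 departed from the other lines, the response was set against those of MOLM-13 (3 pLKO and 2 shRNF5 libraries) and HL-60 (3 of each) in a limma fit over all 15 libraries. The lines share no libraries. The fit uses a common estimate of the spread per gene over all groups, so its p-values do not measure the spread of U937 alone. Among 11072 genes above 0 in all 3 lines, the response of U937 differed from that of MOLM-13 at an adjusted p under 0.1 for 15.4% and from that of HL-60 for 37.2%. The number against MOLM-13 was 1708 with all libraries, 398 without pLKO replicate 2, 3436 without pLKO replicate 3 and 130 without shRNF5 replicate 1, and that against HL-60 was 4122 and 2609 without shRNF5 replicate 1. The reduction of RNF5 itself did not differ detectably, by 0.13 (SE 0.58, limma adjusted p = 0.906) against MOLM-13 and by -0.39 (SE 0.56, adjusted p = 0.622) against HL-60.

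By the test of the difference, the responses of several cholesterol genes were lower and those of several replication genes higher in U937 than in the other lines. The median of the cholesterol list was -1.04 in U937, -0.17 in MOLM-13 and -0.09 in HL-60. That of the replication list was 0.67, -0.33 and -0.07. The log2 fold changes of HMGCS1 were -2.11 in U937, -0.71 in MOLM-13 and -1.01 in HL-60, and the difference was -1.40 (SE 0.31, limma adjusted p = 0.0201) and -1.10 (SE 0.30, adjusted p = 0.0135). MVD was at -1.99, -0.43 and 0.27 in the same order and ACSS2, of the fatty acid list, at -2.67, -0.11 and 0.62. Both differed from both lines. Of the 24 cholesterol genes, 10 were lower in U937 than in MOLM-13 by the test of the difference and 15 lower than in HL-60, with 0 and 1 higher. The values of RRM2 were 2.20, 0.17 and 0.62 and those of CCNE2 3.06, 0.33 and 1.16. Of the 48 replication genes, 33 were higher in the response of U937 than of MOLM-13 and 25 higher than of HL-60, with 0 and 2 lower. The counts for both lists come from the fit with all libraries and were not taken with a library left out. The U937 median of the replication list was 0.32 without pLKO replicate 2. TFRC and HSPA8 also had a higher response in U937 than in either line, with values of 0.26 and 0.23 in MOLM-13 and 0.15 and -0.32 in HL-60. For AZU1 the value was 0.14 in MOLM-13 and 1.05 in HL-60, against -2.44 in U937. Without shRNF5 replicate 1 the differences of HMGCS1, MVD and FDPS from MOLM-13 no longer passed, and without pLKO replicate 2 that of MVD did not.

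**Figure D5:**
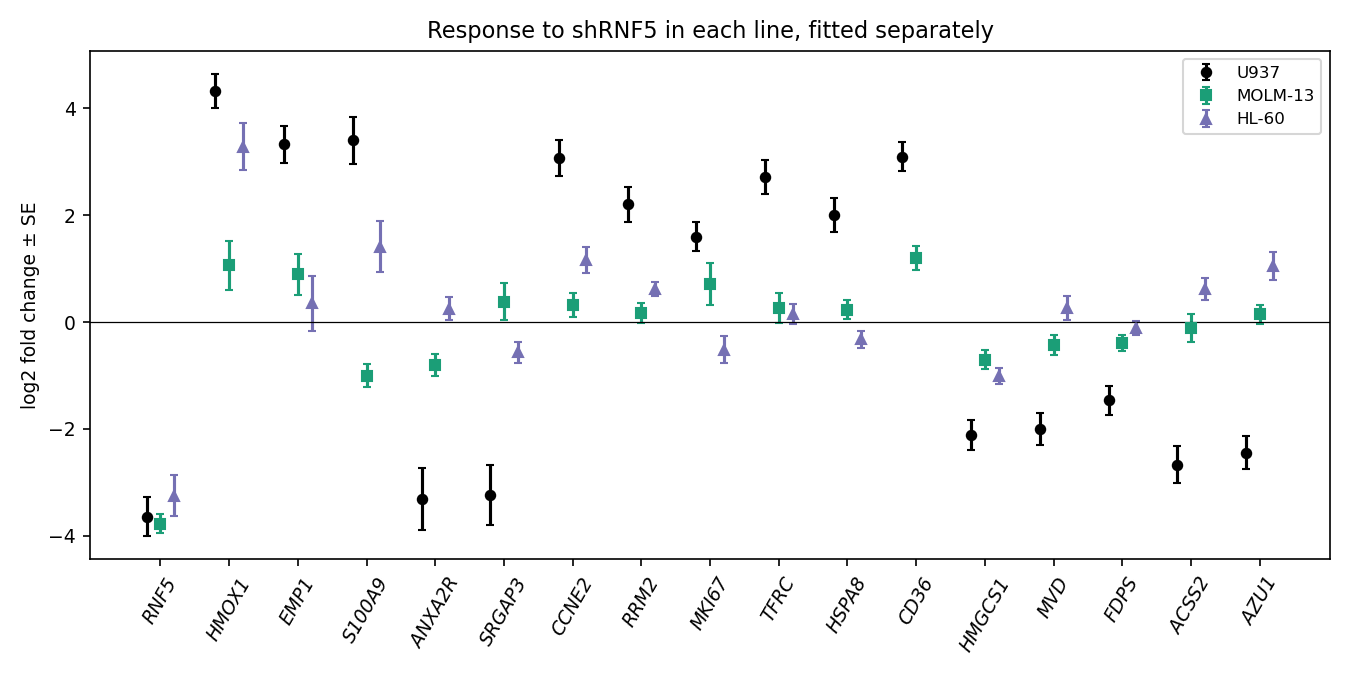
Log2 fold changes of shRNF5 against pLKO with their standard errors for 17 genes, fitted separately in U937 (black circles), MOLM-13 (green squares) and HL-60 (purple triangles). RNF5 is at -3.64, -3.77 and -3.25 in this order, while TFRC and HSPA8 were raised in U937 and within 0.5 of 0 in the other lines. CD36 is listed at 0 in HL-60 and has no point there.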

How the data were processed

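Total RNA of U937, MOLM-13 and HL-60 cells was sequenced as single-end reads. Per the labels the libraries came from a 3′ mRNA kit, while the paper's methods describe a poly(A) selection and a directional kit. The authors trimmed adapters, aligned to hg19 (STAR), assigned reads to genes (featureCounts, Subread) and scaled each library within its line (SARTools, edgeR). The deposited values are these normalized read counts rounded to whole numbers, and are treated as a score, not as raw counts. A value of 0 was given to genes removed by the authors' filter. Depth (14000000 to 20500000 reads per library) was estimated from the spacing of low values. A gene repeated with identical values was used once.

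Values plus 1 were log2-transformed and tested with limma 3.58.1 in R 4.3.3 (mean-variance trend, two-sided, Benjamini-Hochberg over 13165 genes), with calls at an adjusted p under 0.1 and a log2 change beyond 0.4. Differences between lines were tested in a limma fit over all 15 libraries. The limma step and the depth estimate were tested on simulated data in which no library stood apart, so replicates as unlike as the pLKO libraries were not covered. Gene lists are described by counts and medians without a test. Members and lists were chosen with earlier results of these data known. Genes were named by a rule: RNF5, the 10 largest rises and falls among called genes with a mean of at least 100 and, per list, up to 6 called members in each direction and the 4 with the highest mean, or all members of lists of at most 9. Some genes that met the rule are not reported here. RNF185, further members of the cholesterol, replication and NRF2 lists, and the 10 list genes compared between lines were picked after their values were seen. Positions are from GENCODE on GRCh37 (matched for 97.6% of tested genes). Alternatives were other pseudocounts, a filter on means, rescaling, stricter thresholds, no trend, a joint fit and each library left out.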

Additional observations from a re-analysis of the deposited data

Results flagged for a closer look

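The test of the difference between lines covered only genes above 0 in all 3 lines. It was taken for RNF5, the 10 largest rises and falls in U937 and 10 called list genes picked after their values were seen. KRT86, TGM3, CCL2, KRT81, MMP1, PDYN, C2orf72, KCNAB1, F13A1, PPP1R32 and UNC5CL were not above 0 in every line and had no test. Over all genes, 1708 responded differently in U937 and MOLM-13 and 4122 in U937 and HL-60 (limma, adjusted p under 0.1). All values below are differences of log2 fold changes, U937 minus the other line, and only those that passed are listed. Among those that did not pass was HMOX1 against HL-60 (1.04, SE 0.67, limma adjusted p = 0.260), as HMOX1 also rose in HL-60 (log2 fold change 3.28). TTN against MOLM-13 did not pass either (-3.56, SE 1.55, adjusted p = 0.155).

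Against MOLM-13, the difference was 4.40 for S100A9, 3.26 for HMOX1, 3.23 for SUSD1, 2.74 for CCNE2, 2.45 for TFRC, 2.44 for EMP1, 2.03 for RRM2 and 1.78 for HSPA8. It was negative for SRGAP3 (-3.62), AZU1 (-2.59), ACSS2 (-2.56), ANXA2R (-2.51), MVD (-1.56), HMGCS1 (-1.40) and FDPS (-1.08).

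Against HL-60, the difference was 3.02 for SUSD1, 2.98 for EMP1, 2.57 for TFRC, 2.33 for HSPA8, 2.12 for MKI67, 1.99 for S100A9, 1.91 for CCNE2 and 1.59 for RRM2. It was negative for TTN (-5.76), ANXA2R (-3.56), AZU1 (-3.49), ACSS2 (-3.29), SRGAP3 (-2.67), MVD (-2.26), FDPS (-1.36) and HMGCS1 (-1.10). Of these 31 differences, 27, 31, 26 and 29 still passed without pLKO replicate 2, pLKO replicate 3, shRNF5 replicate 1 and shRNF5 replicate 3.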

How the results depend on the processing

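No paired analysis was possible because the pLKO and shRNF5 libraries of U937 share only 1 replicate number. The number of called genes (2062, with 911 higher and 1151 lower) was 475, 162 and 313 without the mean-variance trend, 5239, 2541 and 2698 in 1 fit over all 15 libraries, and 824, 320 and 504 at an adjusted p under 0.05. With an absolute log2 fold change over 1, 571 were higher. With 1 library left out, the totals ranged from 0 to 2369, the rises from 0 to 1247 and the falls from 0 to 1122. The differences from MOLM-13 then ranged from 130 to 3436 and those from HL-60 from 2609 to 4798. The cause of these shifts was not tested. Both pseudocounts (0.5 and 10), the filter on means and the rescaling kept the counts of called genes within 1.5 times, as did a pseudocount of 10 for the differences between lines, on which the others were not run. Of the 165 called genes named in the text, 163 stayed called with a pseudocount of 0.5, 165 with a pseudocount of 10, 163 with rescaling, 163 in the fit over all libraries, 60 without the trend and 139 without pLKO replicate 3, and 0 stayed called without pLKO replicate 2 or without shRNF5 replicate 1 and 5 without shRNF5 replicate 3. Of 40 list medians, 6 changed sign without pLKO replicate 2 and 6 without pLKO replicate 3. Depth per gene is known only approximately, and 2 libraries per construct limit the precision.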

Other observations

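Outside the gene lists, several well-expressed genes changed in U937 and were chosen after their values were seen. CCND3, a D-type cyclin of blood cells, rose from 1956 and 1724 with pLKO to 10502 and 6567 with shRNF5 (log2 fold change 2.18), and CDC25A, the phosphatase that activates S phase kinases, from 526 and 1171 to 3224 and 2280 (1.79). DUSP6, a phosphatase of ERK, and ETV5, a transcription factor of the ETS family, both known as genes induced by ERK signalling, rose from 203 and 541 to 1247 and 1297 and from 141 and 580 to 1531 and 1401. Both differed between the pLKO libraries by more than 2-fold, and without pLKO replicate 2 the log2 fold changes were 1.23 for DUSP6 and 1.33 for ETV5. SERPINB2, a plasminogen activator inhibitor of monocytes, rose from 1353 and 2126 to 6798 and 5365.

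Among the falls, CDK5RAP3 went from 8885 and 6366 to 1663 and 2264 (log2 fold change -1.95), and CLK1, a kinase of splicing factors, from 7722 and 3635 to 1040 and 1820. TSC22D3, a glucocorticoid-induced leucine zipper protein, fell from 4315 and 2032 to 537 and 1190, and PPARGC1A, a coactivator of mitochondrial genes, from 1660 and 736 to 270 and 318.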
